A study of Mus musculus with 2 samples.

Results

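Gas5, Snhg1, Snhg3, Snhg6, Snhg8, Snhg12 and Snhg18 are noncoding genes that carry small nucleolar RNAs (snoRNAs) in their introns. They were taken by gene symbol from both read tables, and are 7 of the 18168 annotated mouse genes that had a read. The tables come from long-read RNA sequencing of total RNA from adrenal gland tissue of male B6CASTF1/J mice aged 25 days, in 2 libraries, called replicates 1 and 2 as in the labels, which form 1 group. No condition was compared with another, and the library descriptions name the same animal while the tissue descriptions name different ones, so the spread between the libraries may be technical. B6CASTF1/J is a hybrid of the C57BL/6 and CAST/EiJ strains, and the labels record no treatment. The 7 genes had 203 reads in all, 80 in replicate 1 and 123 in replicate 2.

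A snoRNA host gene is transcribed and spliced like any other gene, and its snoRNAs are then trimmed out of the excised introns. Box C/D snoRNAs guide 2'-O-methylation of ribosomal and spliceosomal RNA as particles with Fbl, Nop56, Nop58 and Snu13, and box H/ACA snoRNAs guide pseudouridylation with Dkc1, Nhp2, Nop10 and Gar1. The spliced host RNA left behind often starts with a pyrimidine tract, like mRNAs for ribosomal proteins, and in several hosts, Gas5 among them, it is known to be degraded by nonsense-mediated decay when it is translated. Because a long read covers most of a transcript, it shows whether each intron, with the snoRNA inside it, had been removed from that molecule.

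The 7 genes held 26 snoRNA loci within annotated introns on their own strand. Gas5 held 9, Snhg1 held 8, Snhg12 held 4, Snhg3 held 2, and Snhg6, Snhg8 and Snhg18 held 1 each. The sequences below are those the splicing results turn on, from the GENCODE M21 transcripts on mm10. Snord78 and Gm22357 were the Gas5 snoRNAs left most often in reads, and Snord80 and Snord47 the ones left least often. Snord123 is the snoRNA of Snhg18 and Snora24 that of Snhg8. Capitals mark TGATGA, the letters of a C box, within the first 20 bases, CTGA, those of a D box, within the last 20, and for Snora24 an ACA in the last 8, all searched on the snoRNA's own strand.
Snord78 (chr1:161036984-161037049, + strand): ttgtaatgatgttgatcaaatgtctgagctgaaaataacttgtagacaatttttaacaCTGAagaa
Gm22357 (chr1:161036057-161036139, + strand): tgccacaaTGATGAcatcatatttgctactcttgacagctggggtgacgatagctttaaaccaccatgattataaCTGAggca
Snord80 (chr1:161037601-161037681, + strand): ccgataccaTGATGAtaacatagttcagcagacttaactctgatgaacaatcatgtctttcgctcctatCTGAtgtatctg
Snord47 (chr1:161038082-161038158, + strand): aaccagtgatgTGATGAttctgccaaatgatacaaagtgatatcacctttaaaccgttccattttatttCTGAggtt
Snord123 (chr15:32241853-32241923, - strand): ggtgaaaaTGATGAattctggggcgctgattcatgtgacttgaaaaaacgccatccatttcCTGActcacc
Snora24 (chr3:123507937-123508066, - strand): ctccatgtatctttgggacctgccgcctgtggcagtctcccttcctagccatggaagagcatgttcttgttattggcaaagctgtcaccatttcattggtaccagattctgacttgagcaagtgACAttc
Both sets of box letters were present in 7 of the 9 Gas5 snoRNAs and in 15 of the 20 loci that are not named as H/ACA snoRNAs, against 21.1% of the 1465 snoRNA transcripts of the annotation that are not so named. Snord78 had the D box letters only. The ACA was found in 5 of the 6 loci named Snora, against 40 of all 42 snoRNA transcripts with that name (95.2%). Over all 1507 snoRNA transcripts, whatever their name, 706 (46.8%) had the ACA. The 1465 transcripts not named as H/ACA may thus include H/ACA snoRNAs under other names, and the 21.1% is no share among box C/D snoRNAs.

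The start sites of the hosts were compared in the RefSeq promoter table (GRCm38.p6), which matched 6 of the 7 genes, and Snhg6 was not matched. A run of 5 or more bases that are each C or T, on the gene's strand and covering the start site or beginning within 5 bases of it, was present at 6 of the 7 listed starts, against 23.6% of all 32851 starts in the table. Each window below has 20 bases before the start site and 30 from it onwards, with the run in capitals, and shows the 4 hosts whose run covers the start site itself.
Gas5 (chr1:161035146-161035195, + strand): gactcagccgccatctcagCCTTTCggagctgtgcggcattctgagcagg
Snhg8 (chr3:123508307-123508356, - strand): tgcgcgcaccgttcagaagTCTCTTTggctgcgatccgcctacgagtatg
Snhg12 (chr4:132308658-132308707, + strand): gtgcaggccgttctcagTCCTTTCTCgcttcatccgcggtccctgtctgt
Snhg18 (chr15:32244633-32244682, - strand): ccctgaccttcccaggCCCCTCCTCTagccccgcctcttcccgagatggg
The start without a run was a second Gas5 start 565 bases upstream. The reads bear on these starts: the Gas5 window above ends at the first base of intron 1, and 45 and 60 reads in replicates 1 and 2 were spliced from that exon, while 0 and 3 reads were spliced from an exon whose intron begins at position 161034720, downstream of the upstream start.

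Library-wide values set the scale of what follows. The libraries had 752432 and 1210671 reads in annotated mouse genes, and levels are reads per 1000000 of those (CPM). At that scale 1 read stands for 1.33 CPM in the shallower library (replicate 1) and for 0.826 CPM in the deeper one. No length correction was made, because a long read counts once whatever its length. A read need not be a separate molecule, since nothing used here says how PCR copies were treated. A count of 0 allows up to 3 reads, or 3.99 and 2.48 CPM. Adrenal cortex markers were present in both libraries, 8 of 8 detected and summed to 63522 and 25985 CPM, and so were chromaffin cell markers, 6 of 6 at 9435 and 7129 CPM. The 6 liver markers had 5.32 CPM together in replicate 1 against 43821 CPM in replicate 2, the 8 skeletal muscle markers to 4076 and 1.65 CPM, the 6 fat markers to 3692 and 2580 CPM, and of the 5 kidney markers only Aqp2 had reads, 2 in replicate 2. The part of this RNA from other tissues in the values below was not tested.

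Gas5, a growth-arrest-associated transcript and the host with the most snoRNAs, was by far the most abundant of the 7. It had 56 reads in replicate 1 (74.4 CPM, 95% Clopper-Pearson interval 56.2 to 96.6) and 75 reads in replicate 2 (61.9 CPM, 48.7 to 77.7), a mean of 68.2 CPM ± 8.82 (SD, n = 2). The intervals of the libraries overlapped. Gas5 alone made up 70.0% and 61.0% of the reads of the 7 genes and took place 12 among 2021 noncoding genes with a read, ordered by mean CPM. In bulk tissue, fewer cells that express a gene and less RNA per cell cannot be told apart.

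Snhg18, host of Snord123, was next, with 11 and 12 reads (14.6 and 9.91 CPM; mean 12.3 ± 3.33, SD, n = 2). Snhg8, host of Snora24, had 6 and 13 reads (7.97 and 10.7 CPM; mean 9.36 ± 1.95). Snhg3, whose introns hold the H/ACA snoRNAs Snora73a and Snora73b, had 4 and 15 reads (5.32 and 12.4 CPM; mean 8.85 ± 5.0). Among these 3 hosts the intervals overlapped in both libraries, and their order differed between the libraries, so neighbours in that order were not told apart at this depth. In both libraries the lower bound for Gas5 lay above the upper bound of each of the other 6.

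Snhg1, the classical host of Snord22 and of 7 further snoRNA loci, had 3 and 5 reads (3.99 and 4.13 CPM). Snhg6, host of Snord87, had 0 and 2 reads, and Snhg12, host of Snora16a, Snora44, Snora61 and Snord99, had 0 and 1. Both were under the limit that a count of 0 allows, so no difference between them or between the libraries was detectable at this depth. In the order of noncoding genes Snhg18, Snhg8, Snhg3 and Snhg1 took places 112, 139, 151 and 325, and Snhg6 and Snhg12 places 1075 and 1755.

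**Figure D1:**
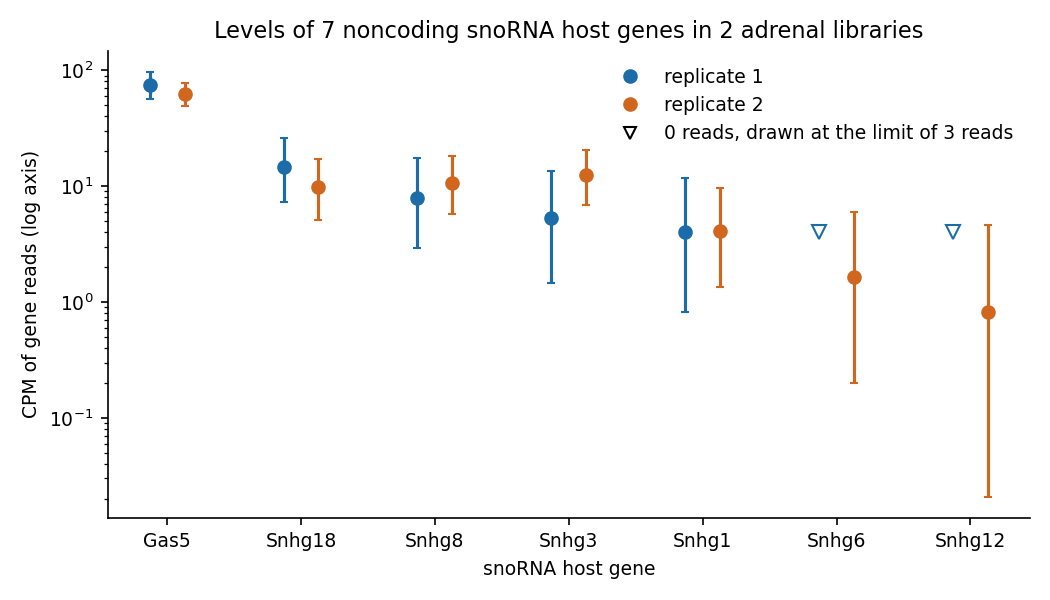
CPM (log axis) of each host gene in replicates 1 and 2, with 95% Clopper-Pearson intervals for counting error; open triangles mark 0 reads, drawn at the limit of 3 reads. Gas5 sits at 74.4 and 61.9 CPM, above the other 6 genes, whose intervals overlap their neighbours in the order.

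None of the hosts was called different between the libraries. Each gene's reads were set against all other gene reads by Fisher's exact test (two-sided, threshold 0.05 after Benjamini-Hochberg adjustment over the 11382 genes whose summed reads reached 10), a test that compares these 2 libraries and not conditions. Of the 7 genes, 4 had enough reads to be tested and 0 were called, with 0 at an unadjusted p under 0.05, where 36.8% of all genes tested were called. These were 1307 genes higher and 2876 lower in replicate 2, a split that became 2015 and 1563 with TMM factors and 2193 and 1387 with DESeq2 size factors. That share depends on depth: it was 16.2% among genes with 10 to 30 reads, where Snhg3, Snhg8 and Snhg18 lie, and 51.6% among genes with 101 to 300 reads, where Gas5 lies with 131. On simulated reads for 11306 genes the same test called 44.0% of genes changed by 2-fold and 92.0% of those changed by 4-fold. It called 0.063% of unchanged genes, where the simulated libraries differed by counting error alone. The changed genes were drawn from all depths of 10 reads or more. These rates are therefore not the chance of a call for Snhg3, Snhg8 or Snhg18.

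As log2 ratios of replicate 2 to replicate 1, Gas5 was at -0.27 ± 0.25 (counting SE; adjusted p by Fisher's exact test 0.480), a ratio of 0.832 with an exact 95% interval of 0.581 to 1.20. Snhg18 was at -0.57 ± 0.59 (exact test, adjusted p = 0.549), Snhg8 at 0.37 ± 0.69 (exact test, adjusted p = 0.769) and Snhg3 at 1.10 ± 0.77 (exact test, adjusted p = 0.279). Each estimate lay within 2 standard errors of 0, and the intervals allow sizeable differences in the 3 lower hosts, for example 0.742-fold to 9.65-fold for Snhg3. The median over the 4 was 0.05, against -0.34 over all genes tested. Scaling by TMM or by DESeq2 size factors moved the median of all genes by 0.35 and 0.40, and with it the Gas5 ratio to 0.08 and 0.14, so the sign of the Gas5 difference is not fixed by these data. Of the 12 Snhg18 reads of replicate 2, 3 were in models classed as genomic. The Snhg18 log2 ratio was -0.94 ± 0.63 without that class and -1.10 ± 0.65 with known models alone, and it was called in neither setting. Summed over the 7 genes the levels were 106 and 102 CPM (mean 104 ± 3.34, SD, n = 2).

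The 3 genes whose levels in the 2 libraries were nearest to those of Gas5, by Euclidean distance of log2(CPM + 1), were Mfsd5 (55 and 75 reads, distance 0.0256), Fbl (57 and 74 reads, distance 0.0316) and Dxo (55 and 74 reads, distance 0.0320). Over only 2 libraries this measures level alone.

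Gas5 also had the most transcript models of the 7 hosts, a count that depends on its depth, since the 8 reads of Snhg1 fell into 7 different series of introns. Its 56 reads of replicate 1 were spread over 23 transcript models and its 75 reads of replicate 2 over 35, of which 16 and 23 had a single read. Genes with 50 to 80 reads had a median of 9 models in either library, and 70 of 1249 such genes in replicate 1 and 13 of 1410 in replicate 2 had more models than Gas5. Such genes were not matched by number of introns to Gas5. Known models, those with an annotated intron chain, held 69.6% of its reads in replicate 1 (95% interval 55.9 to 81.2) and 54.7% in replicate 2 (42.7 to 66.2), and these intervals overlapped. Most of the remainder were NIC models, which combine annotated splice sites in a way the annotation does not list, with 13 and 22 reads, and ISM models, which match part of an annotated chain, with 4 and 9. NNC models, which use a splice site outside the annotation, had 0 and 3 reads, with 4 such sites that lay 4 to 15 bases from an annotated one.

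Each library has model identifiers of its own, so a transcript was followed across libraries by its strand and its series of introns, here called its chain. Gas5 had 43 chains, and 15 of them, with 76.3% of its reads, occurred in both libraries. The chain with the most reads was Gas5-224, with 12 exons and all 9 snoRNAs in its 11 introns, at 17 of 56 and 22 of 75 reads (30.4% and 29.3%). The next was Gas5-210, which has the same junctions except that it skips exon 7, at 10 and 9 reads. The third, a NIC model with 4 and 2 reads, kept introns 6 and 7, with Snord78, as exon. The fourth, a NIC model with 1 and 3 reads, was spliced from exon 4 straight to exon 11 and so lacked 6 exons.

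The share of the leading chain was nearly equal in the libraries, and Fisher's exact test did not call it (adjusted p = 1.0). Of 5110 genes that had more than 1 chain and 20 or more multi-exon reads per library, 7.42% were called. The leading chain of these genes held a median of 78.2% of multi-exon reads over both libraries, and in 307 of them (6.01%) it held less than the 29.8% of Gas5. They were not matched to Gas5 by number of introns, and a gene with more introns can form more chains. No other of the 7 hosts had enough reads for this test.

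**Figure D2:**
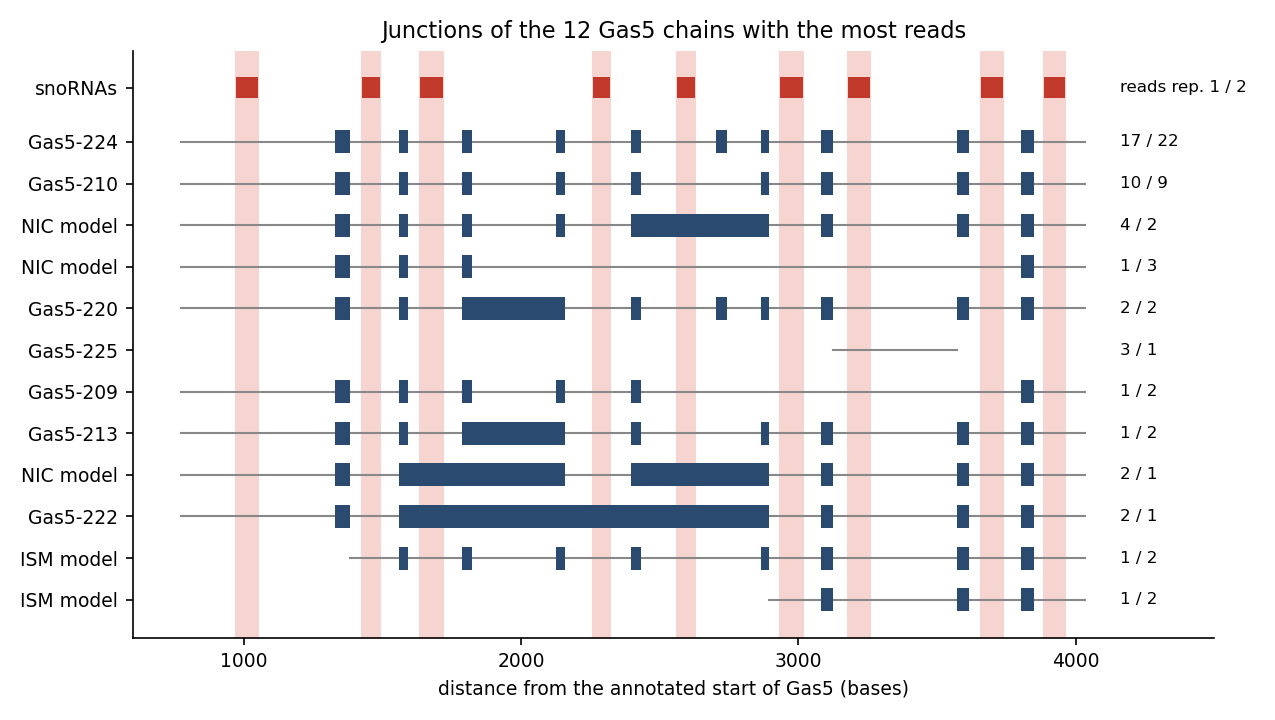
Junctions of the 12 Gas5 chains with the most reads, by distance in bases from the annotated start of the gene; grey lines are introns, dark boxes internal exons (first and last exons are not drawn), red boxes and bands the 9 snoRNAs, and the numbers at the right the reads in replicates 1 and 2. Gas5-224, with 17 and 22 reads, has all 9 snoRNAs in introns, while 5 of the 12 chains keep 1 or more introns inside an internal exon.

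Exon 7 is a 41-base exon at chr1:161037124-161037164, between the intron with Snord78 and intron 7, which holds no snoRNA. Their sequences are shown because exon 7 is the exon that separates the leading chains Gas5-224 and Gas5-210, and intron 7 is 1 of the 3 introns kept most often. Capitals mark the first and last bases of intron 7, GT and AG, which also bound introns 3 to 6.
Gas5 exon 7 (chr1:161037124-161037164, + strand): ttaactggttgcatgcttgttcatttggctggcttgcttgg
Gas5 intron 7 (chr1:161037165-161037287, + strand): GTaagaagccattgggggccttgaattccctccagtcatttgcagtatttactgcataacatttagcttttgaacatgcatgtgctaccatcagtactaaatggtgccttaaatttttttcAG
Reads were informative if they had both junctions of the exon or the junction that skips this exon alone. Reads with a longer skip, or that kept an intron beside the exon, were left out. The exon was spliced in on both sides in 20 of 35 informative reads of replicate 1 and 29 of 46 of replicate 2. That is 60.5% of the informative reads over both (95% interval 49.0 to 71.2). The libraries gave 57.1% and 63.0%, with overlapping intervals.

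Reads that keep introns were common in Gas5. Of its 131 reads, 60 kept at least 1 of the 11 introns of Gas5-224, at 27 of 56 in replicate 1 (48.2%) and 33 of 75 in replicate 2 (44.0%), or 45.8% over both (95% interval 37.1 to 54.7). All 131 reads had at least 1 junction, and 0 were in models the authors classed as genomic. Of the 60 reads, 19 belonged to 8 annotated chains and the other 41 to 26 further chains, 18 of them seen once. The share therefore depends on how models are chosen: it was 29.3% among reads of models with at least 2 reads in their library and 23.8% among known models, both settings chosen after seeing the data.

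The introns kept lay mainly in the middle of the gene. Intron 4, which holds no snoRNA, was kept in 15 of 50 spanning reads of replicate 1 and 22 of 70 of replicate 2 (30.8% over both, 95% interval 22.7 to 39.9). Intron 6, with Snord78, was kept in 13 of 50 and 20 of 72 reads (27.0%, 19.4 to 35.8), and intron 7, without a snoRNA, in 12 of 50 and 20 of 72 (26.2%, 18.7 to 35.0). The middle introns 3 and 5, with Gm22357 and Gm23212, followed at 19.5% and 14.2%.

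The introns toward either end were kept less often. Introns 9 and 10, with Snord80 and Snord47, were kept in 0 reads of replicate 1 and in 2 and 3 reads of replicate 2 (1.55% and 2.36% over both). Introns 1, 2, 8 and 11 were kept in 7.69%, 5.08%, 9.45% and 10.2% of spanning reads. The 2 introns without a snoRNA were thus among the 3 kept most often, and the 9 with one ranged from 1.55% to 27.0%. The order was much the same in both libraries, in which introns 4, 6 and 7 were the 3 highest.

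**Figure D3:**
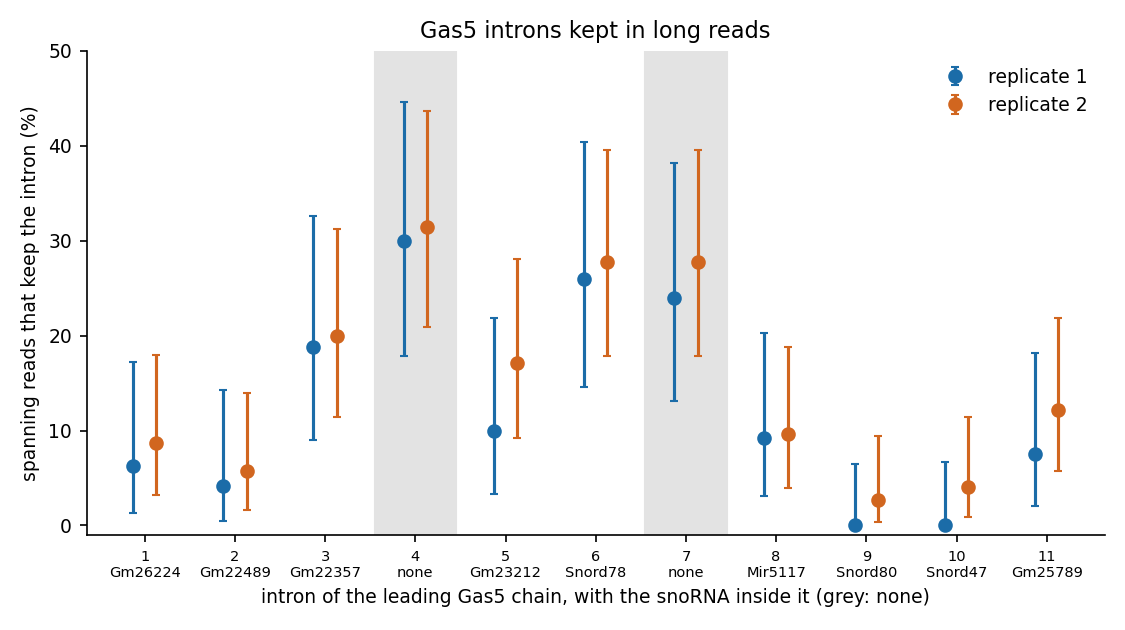
Percent of spanning Gas5 reads that keep each of the 11 introns of the leading chain, by library, with 95% Clopper-Pearson intervals; the name under each number is the snoRNA inside the intron, and grey bands mark the 2 introns without one. Introns 4, 6 and 7 stand at 24.0% to 31.4% in either library, and introns 9 and 10 at 0% to 4.05%.

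Introns of the middle stretch were kept together. Of 33 reads that kept intron 6, 32 also kept intron 7, which leaves exon 7 inside a longer exon. All 23 reads that kept intron 3 also kept intron 4, and all 17 that kept intron 5 also kept intron 4 and intron 6. The reverse was not so, since 37 reads kept intron 4 in all. Over all reads 71 kept no intron, 23 kept 1, 13 kept 2 and 24 kept 3 or more, up to 10 in 1 read of replicate 2. Only 9 of the 60 reads kept nothing but introns that hold no snoRNA.

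**Figure D4:**
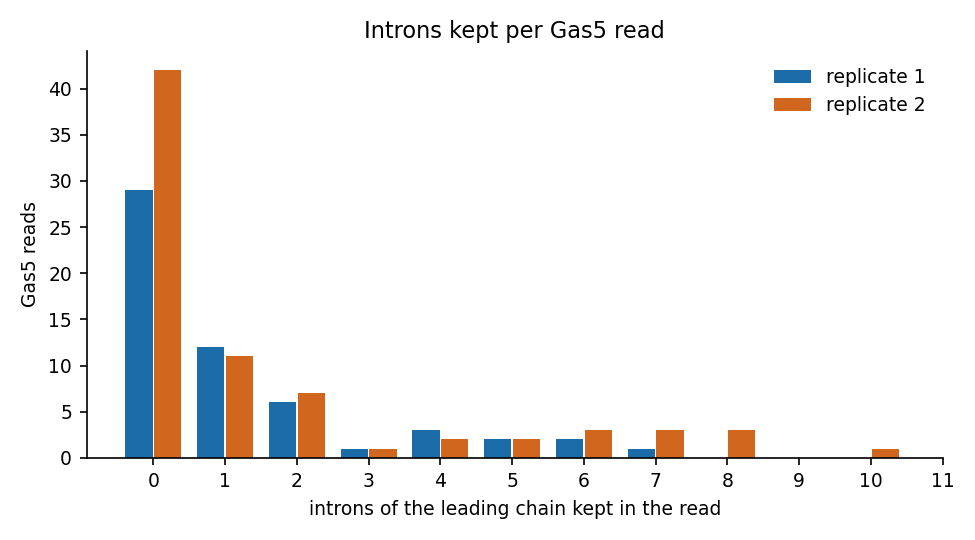
Number of Gas5 reads (y axis) by how many introns of the leading chain they keep (x axis), in replicates 1 and 2. Most reads keep 0 introns (29 and 42 reads), 12 and 11 reads keep 1, and a tail of single reads and small groups reaches 10.

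Over the 11 introns 13.9% of spanning reads of Gas5 kept the intron, and 6 of the 11 were kept in more than 10%. In 8412 other genes with at least 20 reads, 0.947% of spanning reads over 73722 introns kept the intron, and 2.30% of introns were kept in more than 10%. Short introns were kept more often, with 1.98% among 16881 introns of 100 to 500 bases, the range of 10 of the Gas5 introns. In protein-coding hosts the share was 0.641% over 206 introns with a snoRNA and 0.591% over 1385 without one. These are descriptions, and the difference was not tested.

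Read by snoRNA, 88.6% of all spans of a snoRNA by a read of the 7 hosts had it inside an intron of the model. In Gas5 the share removed was lowest for Snord78, at 37 of 50 and 52 of 72 reads (73.0% over both, 74.0% and 72.2% by library). Gm22357 followed at 79.2%, Gm23212 at 85.8%, Mir5117, a locus annotated as a snoRNA, at 89.1% and Gm25789 at 89.8%. Gm26224, Gm22489, Snord47 and Snord80 were removed in 92.3%, 94.9%, 97.6% and 98.4% of spanning reads. No model that spanned a snoRNA had a splice site inside it in either library. Models that began or ended inside a snoRNA were not counted.

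Read by molecule, 32 of 56 Gas5 reads of replicate 1 (57.1%) and 47 of 75 of replicate 2 (62.7%) had every snoRNA they spanned removed, or 60.3% over both (95% interval 51.4 to 68.7). Of the 52 that still held a snoRNA, 27 held 1 and the rest up to 8. Snhg1, like Gas5 a gene with many box C/D snoRNAs, had all removed in 3 of 8 reads, with an interval of 8.52% to 75.5% that includes the Gas5 share.

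In the hosts with 1 or 2 snoRNAs, most reads that spanned a snoRNA had it removed. Snhg3 had both Snora73a and Snora73b removed in 19 of 19 reads, all of the annotated transcript Snhg3-204. Snhg18 had Snord123 removed in 19 of 19 spanning reads, all Snhg18-201, and its other 4 reads, all in replicate 2, were single-exon models that did not span the snoRNA. Snhg8 had Snora24 removed in 17 of 19 reads, 16 of them Snhg8-201, and the 2 reads that held it belonged to the unspliced annotated transcript Snhg8-202 in replicate 2. The few reads of Snhg6 (2 of 2) and Snhg12 (1 of 1) had their snoRNAs removed.

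**Figure D5:**
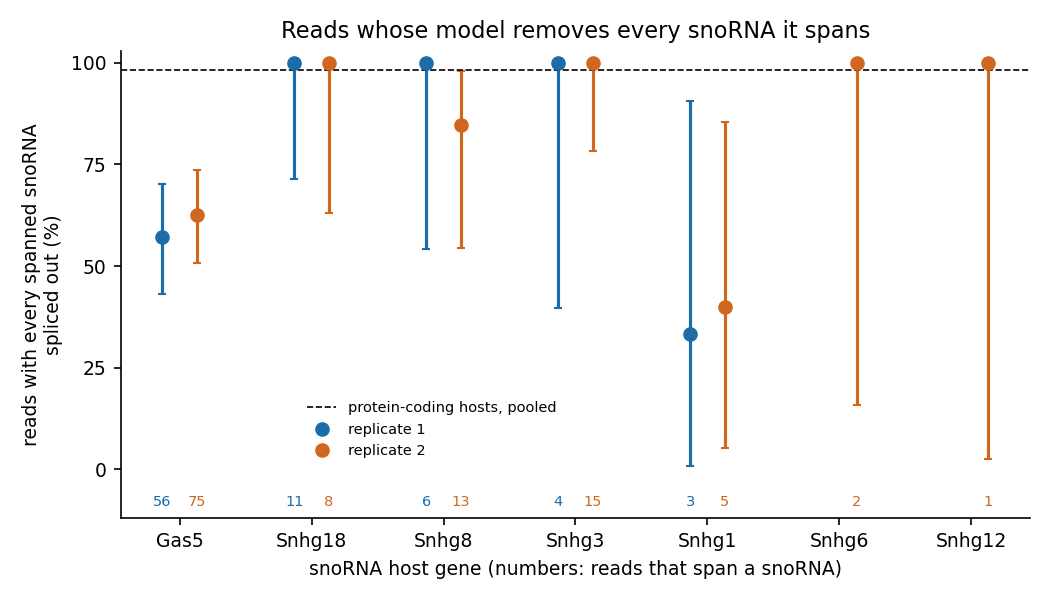
Percent of reads whose model removes every snoRNA it spans, by host and library, with 95% Clopper-Pearson intervals; the small numbers are the spanning reads and the dashed line is the pooled share of protein-coding hosts (98.2%). Gas5 lies at 57.1% and 62.7% and Snhg1 at 33.3% and 40.0%, while the other 5 hosts lie at 84.6% to 100% on few reads. Gas5 and Snhg1 have the most snoRNA loci, 9 and 8. A read that spans more snoRNAs has more that it can hold, and the shares are not adjusted for this.

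Protein-coding genes with a snoRNA in an intron had every spanned snoRNA removed in 47540 of 48388 reads (98.2%). Of the 138 such genes with at least 20 spanning reads, 2 had a lower share than Gas5, and the lowest was Gm45713 at 33.8%, named after its value was seen. Other noncoding hosts, listed together with other Snhg genes, had 196 of 859 reads (22.8%), which include 3 reads of Snhg11, typed as protein-coding. Of the 859 reads, 631 belonged to Cct6a, a chaperonin subunit gene whose record is typed as a processed transcript. Without Cct6a, a setting chosen after its value was seen, the share was 192 of 228 (84.2%, 95% interval 78.8 to 88.7), with 87.5% in Snhg5 (32 reads), 100% in Snhg9 (46 reads) and 25.0% in Snhg17 (12 reads), of which Snhg5 and Snhg17 were named after their values were seen. The difference between Gas5 and these genes was not tested. A read counts here only if every snoRNA it spans is removed. A host whose reads span more snoRNAs can thus have a lower share at equal removal of each. Gas5 has 9 snoRNA loci, and the hosts were not matched for this number.

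Across the 7 hosts, 57 chains were seen and 19 occurred in both libraries, with 79.2% of the 197 multi-exon reads. With at least 2 reads in a library as the rule, 7 of 18 chains occurred in both: 4 of Gas5 and the single recurrent chains of Snhg3, Snhg8 and Snhg18. Of the 7 chains of Snhg1, Snhg1-211 was the one found in both libraries.

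Few reads lay on the snoRNA records themselves, 10 in each library over 6 of the 26 loci. Mir5117 within Gas5 had 5 and 5, Snora73a 1 and 3, Snora24 0 and 2, Snord87 2 and 0, and Snora61 and Snord22 1 each in replicate 1. Snora73a and Snora73b are uncertain against each other, since their sequences differ at 7 of 205 positions. These counts are no measure of the mature snoRNAs, which are short RNAs. Reads on the opposite strand of the 7 genes were at most 5 in a library, at Snhg6, and Rcc1, the neighbour of Snhg3 on the same strand, reached into Snhg3 with 1 read in each library.

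The genes for the snoRNA particle proteins had levels on the scale of Gas5. Those of the box C/D proteins had 105 and 84.3 CPM for Snu13, 98.3 and 66.9 CPM for Nop56, 75.8 and 61.1 CPM for the methyltransferase Fbl, and 37.2 and 49.6 CPM for Nop58, and 0 of the 4 were called between libraries (Fisher's exact test), where 36.8% of all genes tested were. Nop56 alone had an unadjusted p under 0.05 by this exact test (log2 ratio -0.56 ± 0.23, adjusted p = 0.0544). Nop58 was called higher in replicate 2 with DESeq2 size factors (log2 ratio 0.80, exact test, adjusted p = 0.0437) and not with TMM factors (adjusted p = 0.0693) or with CPM (0.40 ± 0.33, adjusted p = 0.370). Of the genes for H/ACA proteins Nop10 had 122 and 119 CPM, Nhp2 57.1 and 46.3 CPM and Gar1 19.9 and 24.0 CPM. The pseudouridine synthase Dkc1 was the 1 of 4 called (25.0%, against 36.8% of all genes tested), lower in replicate 2 at 26.4 against 90.4 CPM (log2 ratio -1.76 ± 0.31, exact test, adjusted p = 2.92e-08), and it was called under TMM and DESeq2 scaling too.

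Of the 7 assembly factors 6 were tested and 2 were lower in replicate 2, the ATPases Ruvbl2 (110 and 62.8 CPM) and Ruvbl1 (81.1 and 50.4 CPM), neither of which was called under TMM or DESeq2 scaling, while Shq1 had 31.9 and 19.0 CPM and Nufip1 26.6 and 13.2 CPM. Of the 10 factors of nonsense-mediated decay 9 were tested and 4 were called. The helicase Upf1 (116 and 34.7 CPM) and Smg8 (17.3 and 4.96 CPM) were lower in replicate 2, and Smg5 (3.99 and 38.0 CPM) and Upf2 (6.65 and 24.0 CPM) were higher, and of these only the Smg8 call was lost under TMM or DESeq2 scaling. Upf3a had 63.8 and 47.1 CPM and Smg6 21.3 and 9.91 CPM, and neither was called. The shares called, 33.3% and 44.4%, stand beside 36.8% over all genes tested.

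Among 60 other Snhg genes and noncoding hosts, a list that takes in Snhg11, typed as protein-coding, 12 were tested, with a median log2 ratio of -0.45. Of the 12, 1 was called, AI506816, lower in replicate 2 (30.6 and 9.91 CPM, exact test, adjusted p = 0.00534, and 0.0504 with TMM factors). That is 8.33% called, against 36.8% of all genes tested and 16.2% of those with 10 to 30 reads. The others with the highest means were Cct6a (365 and 304 CPM), Snhg20 (38.5 and 24.8 CPM), for which no read over an intronic snoRNA was counted, and Snhg9 (19.9 and 25.6 CPM). Without Cct6a none of the list had a mean level as high as that of Gas5. Among 257 protein-coding hosts 188 were tested, 16 were higher and 55 lower in replicate 2 (37.8% called, near the 36.8% of all genes tested), and these counts became 35 and 30 with TMM factors and 40 and 28 with DESeq2 size factors. Their highest were the mitochondrial ATP synthase subunit gene Atp5b (4415 and 3719 CPM), the chaperone genes Hspa8 (4157 and 1792 CPM) and Hspa9 (1506 and 855 CPM), and the phosphate carrier gene Slc25a3 (1272 and 914 CPM).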

How the data were processed

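The authors deposited whole read counts per transcript model for each library, not normalised, and a transcript annotation with the exons of each model. Both were made on mm10 with GENCODE M21, per the file headers, and carry the attribute names of TALON. No source used here gives its version or the aligner. The 7 genes and all lists were chosen with earlier results of these data known.

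Counts were summed per gene and scaled to CPM over reads in annotated mouse genes. Fisher's exact test (two-sided, scipy 1.17.1) compared each gene's reads in the libraries where they summed to at least 10, and p-values were adjusted by Benjamini-Hochberg over all genes tested (threshold 0.05). A prior of 0.5 reads was added for log2 ratios. edgeR's quasi-likelihood test needs a second group and was not run, while edgeR 4.0.16 gave TMM factors and DESeq2 1.42.0 size factors as alternatives. Models were matched by strand and intron chain. A snoRNA counted as removed where an intron of the model covered it and the model reached beyond it on both sides. An intron was kept where an exon covered it. Ends of the models were taken from the annotation in most cases (45 of 47 models outside the known class started, and 47 ended, at an annotated exon boundary), so read ends are not shown. Shares carry Clopper-Pearson 95% intervals, which cover counting error only, since nothing used here says how PCR copies were treated. Tests were tried on simulated reads.

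Named are the 7 genes, their snoRNAs, the leading chain and up to 3 further chains, opposite-strand or joined models with at least 10 reads in a library (none had so many, and the largest are given), the 4 genes with the highest mean CPM of each list, called genes of the snoRNA particle, assembly and decay lists, and the 3 genes nearest to the most abundant host in level.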

Additional observations from a re-analysis of the deposited data

How the results depend on the processing

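No host was called between the libraries under TMM factors, DESeq2 size factors, all mouse reads as the total, known models alone, genomic models left out or no minimum of reads (0 each time, by Fisher's exact test), and 1 host, Snhg3, had an unadjusted p under 0.05, with DESeq2 size factors. Under TMM factors and DESeq2 size factors the log2 ratio of Gas5 reversed, to 0.080 and 0.14, along with the shift of all genes given above. The mean summed level of the 7 genes, 104 CPM, moved to 96.9 CPM with known models alone and to 107 CPM without genomic models, and leaving out each library gave 102 to 106 CPM. Of chains with enough reads in either library, 19 of 57 occurred in both with at least 1 read and 4 of 5 with at least 5 reads, against 7 of 18. Leaving out each library gave 87.3% to 90.5% of snoRNA spans removed. Exon 7 of Gas5 was included in 66.2% of informative reads of known models against 60.5%, a setting added after seeing the data. Of 71 values under alternatives 61 were labelled as kept. The rule was direction, side of the threshold, distance within 1 SD between the libraries or, for counts of genes and chains, closeness to the main count. Some of the 61 could not have moved. A value from 1 library alone lay within that SD by construction, and Gas5 had no genomic or single-exon reads for those settings to change. The 61 are therefore no measure of robustness. Depth limits all hosts but Gas5: with 0 to 15 reads per library, differences of several fold could be missed. The ratio interval of Snhg3, for example, ran from 0.742 to 9.65. Such differences were not always missed, since Smg8, with 13 and 6 reads, was called in CPM. No paired analysis was possible because the libraries form 1 group.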
